A study of Mus musculus with 12 samples.

Results

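The Slc25 genes encode the mitochondrial carriers, and 41 of the 20587 genes with normalized counts in 4T1 cells carry a symbol made of Slc25a and a number. These 41 genes were the members described here. The symbol chose them and no cut on a measured value did, although earlier results of these data were known. Normalized counts (reads per gene divided by 1 size factor per library) of at least 10 in at least 3 libraries were found for 40 members, which were tested. The exception was Slc25a18, a mitochondrial glutamate carrier, which held 0 to 5.39 normalized counts per library. Members lacking from the table were not analysed here.

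Mitochondrial carriers are small proteins of the inner mitochondrial membrane, built from repeats of a pair of membrane-spanning helices, and most exchange a solute of the matrix for one of the cytosol. They move citrate and malate, aspartate and glutamate, ADP and ATP, phosphate, cofactors, nucleotides, iron and glutathione between these compartments. The proteins are made in the cytosol, escorted by small chaperones of the intermembrane space and inserted by the TIM22 complex. Serine and glycine feed the mitochondrial folate cycle, glutathione and heme, for which some members carry folate, glutathione or glycine.

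RNA-Seq compared 4 groups of 3 libraries each from one experiment in biological triplicate, all on 4T1, a mouse mammary carcinoma line that lacks p53. Control cells (Ctr) had serine and glycine in the medium and no radiation, and SG-starved cells (-SG) had neither amino acid. Cells of the IR group kept both amino acids and were given 5 Gy of X-rays, a dose that IR -SG cells were given in the starved state. RNA of all groups was taken at 24 h. All 4 groups are 1 cultured line, so p-values measure the spread between cultures of that line.

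Promoters are shown for the pair of members with the largest rises after SG starvation (Slc25a48 and Slc25a45), for the member that fell most (Slc25a1) and for an ornithine carrier that fell under both treatments (Slc25a15). Each is the 250 bases before a RefSeq start on GRCm38.p6, written 5′ to 3′, with every match of the E-box CACGTG in capitals.
Slc25a48 (chr13:56438105-56438354, plus strand): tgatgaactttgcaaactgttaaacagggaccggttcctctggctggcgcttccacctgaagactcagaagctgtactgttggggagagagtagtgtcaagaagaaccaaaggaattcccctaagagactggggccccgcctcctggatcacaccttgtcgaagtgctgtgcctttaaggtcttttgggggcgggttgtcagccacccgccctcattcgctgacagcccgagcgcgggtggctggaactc
Slc25a45 (chr19:5877572-5877821, plus strand): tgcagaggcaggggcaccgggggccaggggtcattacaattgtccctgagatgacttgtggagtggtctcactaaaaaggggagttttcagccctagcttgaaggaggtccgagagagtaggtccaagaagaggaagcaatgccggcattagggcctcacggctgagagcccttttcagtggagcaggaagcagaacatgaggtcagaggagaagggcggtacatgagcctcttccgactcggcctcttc
Slc25a1 (chr16:17928220-17928469, minus strand): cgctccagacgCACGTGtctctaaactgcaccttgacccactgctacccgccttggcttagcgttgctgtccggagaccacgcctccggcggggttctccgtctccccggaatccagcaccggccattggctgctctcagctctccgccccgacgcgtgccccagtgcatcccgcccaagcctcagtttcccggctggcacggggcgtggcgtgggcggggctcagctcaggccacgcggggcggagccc
Slc25a15 (chr8:22398278-22398527, minus strand): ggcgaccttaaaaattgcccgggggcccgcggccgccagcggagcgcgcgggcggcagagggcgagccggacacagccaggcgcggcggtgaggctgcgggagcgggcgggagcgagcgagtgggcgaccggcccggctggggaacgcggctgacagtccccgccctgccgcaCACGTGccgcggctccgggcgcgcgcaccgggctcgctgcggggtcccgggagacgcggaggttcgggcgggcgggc

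RefSeq promoters matched 32 of the 41 members, with 41 starts. CACGTG reads the same on both strands and lay in 6 of these 32 members (Slc25a1, Slc25a13, Slc25a14, Slc25a15, Slc25a33 and Slc25a36), where 6.9% of all 27025 genes with such promoters hold it. Slc25a1 held it 239 bases before its start and Slc25a15 held it 77 bases before the start shown, but not before its other start. Among these 6, Slc25a1, Slc25a13 and Slc25a15 fell after starvation, Slc25a36 rose and Slc25a14 and Slc25a33 were not called. Slc25a3, Slc25a4, Slc25a5, Slc25a11, Slc25a12, Slc25a22, Slc25a25 and Slc25a40 fell as well and did not hold it. The core of the amino acid response element, TGATGNAA with N for any base, was searched on both strands and was found in 0 of the 32 members, against 3.9% of all genes. A core of the antioxidant response element, TGANNNNGC, was found in 15 of the 32 members and in 38.7% of all genes. These matches describe letters in a window of 250 bases and were not related to the RNA values by any test.

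Recovered reads in genes ranged from 12540160 to 20066659 per library (median 16718006). Epithelial markers (Epcam, Krt8, Krt18, Krt19, Cdh1) summed to 44197 to 60226 normalized counts per library, the defining leukocyte marker Ptprc lay at 0 to 6.3 and Pecam1 of endothelium at 0 to 7.92. The sum of 4 fibroblast markers, nearly all of it Pdgfra, was 202 to 317 for Ctr, 252 to 331 for -SG, 488 to 525 for IR and 413 to 465 for IR -SG, and the sum of 2 leukocyte markers, mainly Cd68, was 63.3 to 84.5, 39.9 to 58.8, 109 to 114 and 67.9 to 87.2 in the same order. The part of these genes in the results on radiation was not tested. One starved library, -SG replicate 6, stood apart: the chi-square per gene was 7.53 and 11.9 against the other starved libraries and 1.49 to 3.26 in the other pairs within a group, and its differences from them followed the GC content of genes (rank correlation across genes 0.41 and 0.55, with replicate 6 higher in GC-rich genes). Such a correlation was not particular to it, since sizes of 0.03 to 0.36 were found in the other pairs, the largest between IR replicates 1 and 2. Values of -SG against Ctr are given with all libraries and, beside them, without replicate 6. Slc25a5 shared 62.4% of its runs of 36 bases with other annotated transcripts, mostly its pseudogenes, and its counts are uncertain to that extent. For Slc25a35, 31.3% of exonic bases overlap Rangrf on the opposite strand, and for Slc25a33 14.9% overlap the opposite gene Gm13068. The strand setting of the counting is not given in the sources used here, so reads of such pairs may be mixed.

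Levels within the family were compared per kb of exon, since normalized counts also follow gene length. The ADP/ATP carriers Slc25a5 and Slc25a4 stood highest in Ctr, at 5658 ± 65.4 and 5195 ± 89.1 normalized counts per kb (SD, n = 3), followed by the phosphate carrier Slc25a3 at 2612 ± 50.4 and the glutathione carrier Slc25a39. Slc25a5 alone made up 26.9% ± 0.173 (SD, n = 3) of the family's sum per kb in Ctr, and Slc25a4 24.7% ± 0.153. The order at the top differed between groups. Slc25a4 stood above Slc25a5 in every library of -SG, IR and IR -SG and below it in every Ctr library, with Slc25a4 to Slc25a5 ratios per kb of 0.91 to 0.931 for Ctr, 1.18 to 1.21 for -SG, 1.17 to 1.25 for IR and 1.41 to 1.44 for IR -SG. The sum over all 41 members was 63103 ± 790 normalized counts for Ctr, 56170 ± 1372 for -SG, 62007 ± 1031 for IR and 54070 ± 352 for IR -SG (SD, n = 3 each). Both starved groups thus lay below both fed groups without overlap, at 53667 to 57733 against 60987 to 63570 per library. This order did not hold for the rest of the family: without Slc25a3, Slc25a4 and Slc25a5, left out after their values were seen, the sum was 27072 ± 225 for Ctr, 27421 ± 57.0 for -SG, 26096 ± 231 for IR and 26840 ± 82.5 for IR -SG, with -SG above every Ctr library. In such bulk RNA, fewer cells with a transcript and less of it per cell cannot be told apart.

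**Figure D1:**
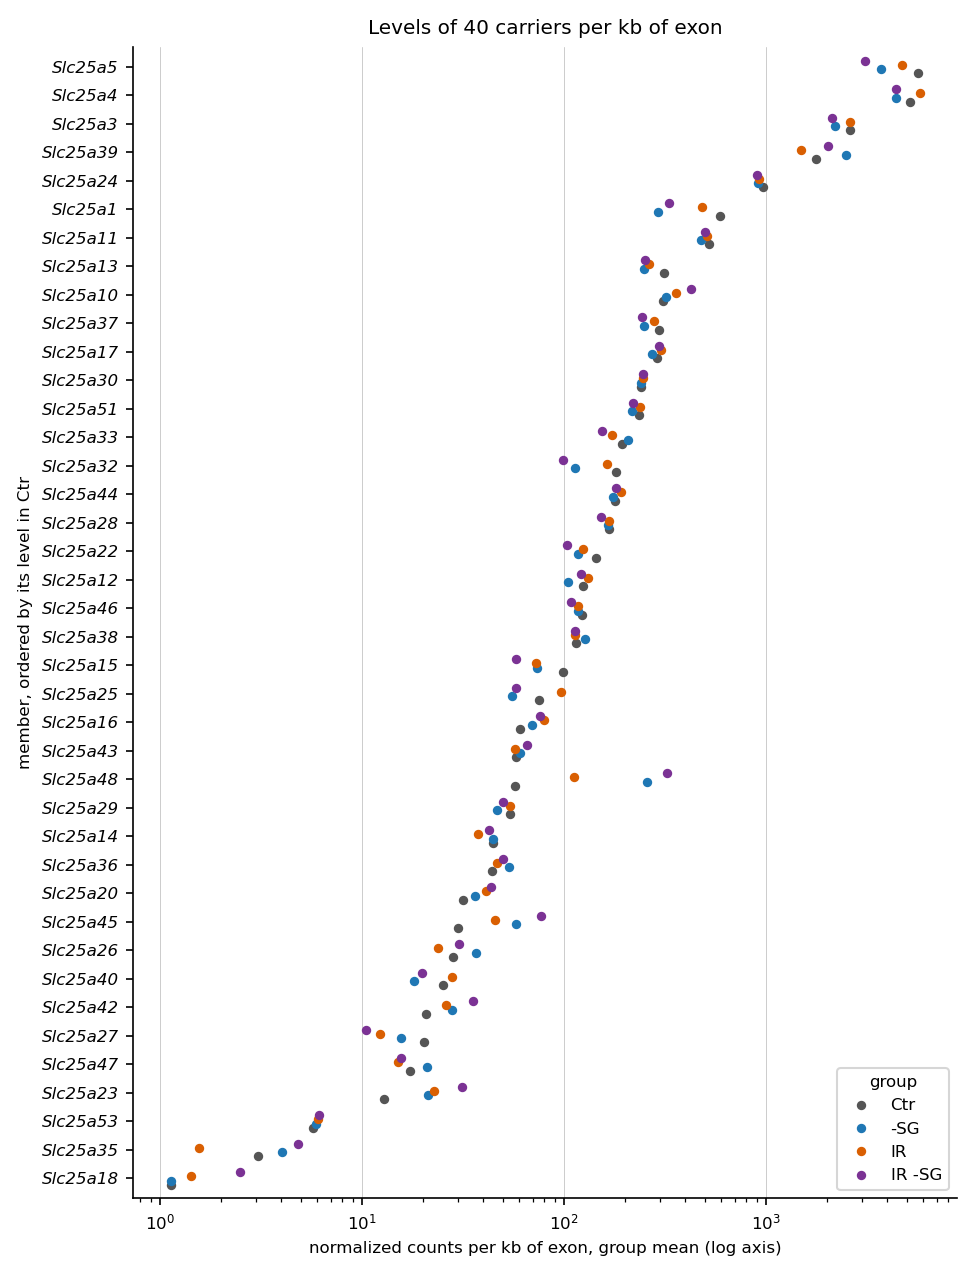
Group means of 40 of the 41 carriers in normalized counts per kb of exon (horizontal log axis), ordered by Ctr, with 1 coloured point per group of 3 libraries. Slc25a5 and Slc25a4 lie at the top in all groups, and Slc25a48 moves furthest, from Ctr (left) through IR and -SG to IR -SG (right).

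Differences were tested with limma on log2(normalized count + 1) over 11663 protein-coding genes, and a member rose or fell where the Benjamini-Hochberg adjusted p was under 0.05. Folds and log2 fold changes are on that scale, which understates changes of low genes. After SG starvation alone (-SG against Ctr), 7 of the 40 members rose and 14 fell, whereas 30.0% of all tested genes rose and 28.6% fell, that is, 17.5% and 35% of the members. The median log2 fold change was -0.03 over members and 0.01 over all tested genes. Without -SG replicate 6, 8 members rose and 15 fell, among them all 7 and all 14. Of all 11663 tested genes, 3712 rose and 3495 fell in that setting. The percentages of all tested genes given above, and those of the comparisons that follow, are also the background for the counts within each role or list.

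After radiation alone (IR against Ctr), 9 members rose and 8 fell, where 28.9% of all tested genes rose and 24.9% fell (medians -0.01 and 0). Quantile normalization turned that balance, to 7 rises and 12 falls among members and 2756 and 3485 among all tested genes. Under both treatments (IR -SG against Ctr), 9 rose and 14 fell against backgrounds of 37.2% and 32.5%, with medians of -0.06 over members and 0.03 over all genes. Starvation within irradiated cells (IR -SG against IR) raised 8 and lowered 10 members, with backgrounds of 28.9% and 28.1%. Radiation within starved cells (IR -SG against -SG) raised 8 and lowered 8, with backgrounds of 23.8% and 19.3%. Without -SG replicate 6 it raised 10 and lowered 10 members, and of all 11663 tested genes it raised 2900 and lowered 2582. With all libraries, the share of members that rose was 17.5% to 22.5% over these 5 comparisons, each below its background. The share that fell was 20% to 35%, on either side of its background.

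**Figure D2:**
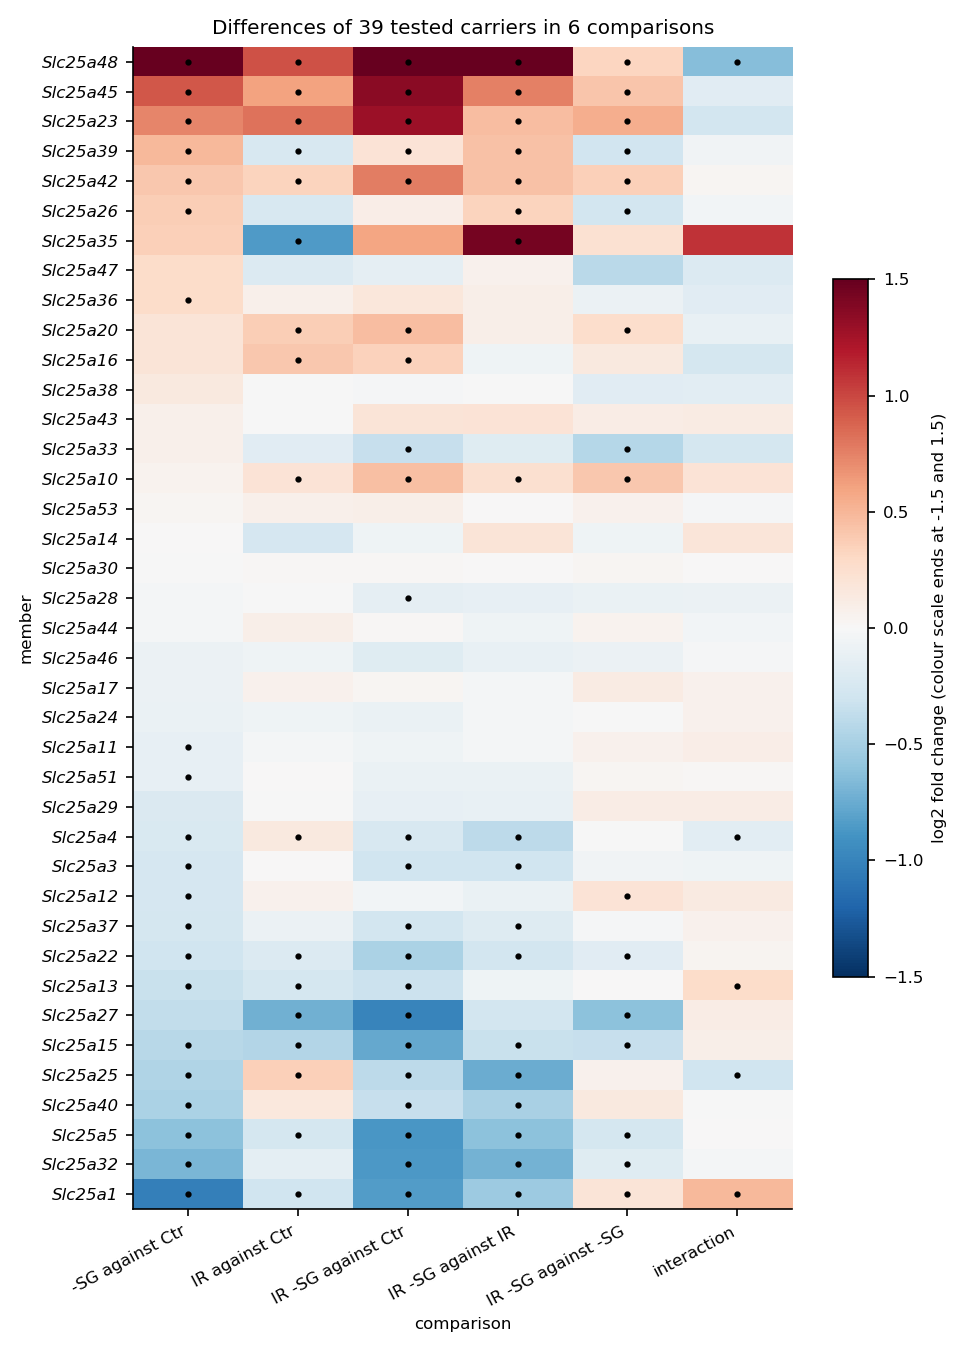
Log2 fold changes of 39 of the 40 tested carriers (rows, ordered by -SG against Ctr) in 6 comparisons (columns), red for higher and blue for lower in the first-named group, with a dot where limma's adjusted p was under 0.05. Slc25a48 rises at the top and Slc25a1 falls at the bottom of the column for -SG against Ctr, and the colours of both starvation columns are alike for most members.

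The 5 largest rises after starvation were those of Slc25a48, Slc25a45, Slc25a23, Slc25a39 and Slc25a42. Slc25a48 lies on chromosome 13 and has been described as a mitochondrial choline carrier. It held 192, 192 and 196 normalized counts in the Ctr libraries, 841, 878 and 905 in -SG, 356, 392 and 384 in IR, and 1133, 1071 and 1075 in IR -SG. No library of one group reached the range of another. The rise was 4.50-fold after starvation (log2 fold change 2.17 ± 0.05 SE, adjusted p = 1.54e-14), 1.94-fold after radiation (0.96 ± 0.05, adjusted p = 8.96e-10) and 5.62-fold under both (2.49 ± 0.05, adjusted p = 2.19e-15). Per kb it ranked 27 among the 41 members in Ctr, 22 after radiation, 10 after starvation and 9 after both. Without -SG replicate 6 the starvation value was 2.14.

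Slc25a45, a member of the family on chromosome 19, held 83.7, 80.8 and 83.6 normalized counts in Ctr, 161, 136 and 183 in -SG, 117, 119 and 142 in IR, and 202, 228 and 210 in IR -SG. Ctr lay below and IR -SG above all other libraries, while -SG and IR overlapped. Its log2 fold changes were 0.93 ± 0.11 after starvation (adjusted p = 2.33e-06; 0.83 without replicate 6), 0.60 ± 0.11 after radiation (adjusted p = 0.000312) and 1.35 ± 0.11 under both (adjusted p = 1.61e-08). Radiation alone gave 0.34 under quantile normalization, still past the threshold.

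Slc25a23 encodes a calcium-regulated carrier that exchanges ATP-Mg for phosphate. Its libraries held 57.8, 79.7 and 66.9 normalized counts in Ctr, 113, 123 and 103 in -SG, 124, 125 and 112 in IR, and 166, 162 and 167 in IR -SG. Single treatments overlapped each other and lay apart from both Ctr and the double treatment. The log2 fold changes were 0.73 ± 0.12 after starvation (adjusted p = 5.13e-05; 0.80 without replicate 6), 0.82 ± 0.12 after radiation (adjusted p = 2.27e-05; 0.54 under quantile normalization) and 1.28 ± 0.12 under both (adjusted p = 5.57e-08).

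Slc25a42 imports coenzyme A into mitochondria. It was measured at 121, 128 and 126 normalized counts in Ctr, 166, 147 and 186 in -SG, 139, 176 and 157 in IR, and 197, 230 and 213 in IR -SG. All treated libraries lay above all Ctr libraries, and the single treatments overlapped. Starvation gave a log2 fold change of 0.41 ± 0.11 (adjusted p = 0.00338; 0.33 without replicate 6) and both treatments 0.77 ± 0.11 (adjusted p = 6.78e-06). The radiation value of 0.33 ± 0.11 (adjusted p = 0.0158) lost its call under quantile normalization (0.14), without Ctr replicate 1 (adjusted p = 0.0506) and without IR replicate 2 (adjusted p = 0.089). In IR -SG against -SG the value was 0.36, a call lost without -SG replicate 5 (adjusted p = 0.0586) or IR -SG replicate 5 (adjusted p = 0.0592).

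**Figure D3:**
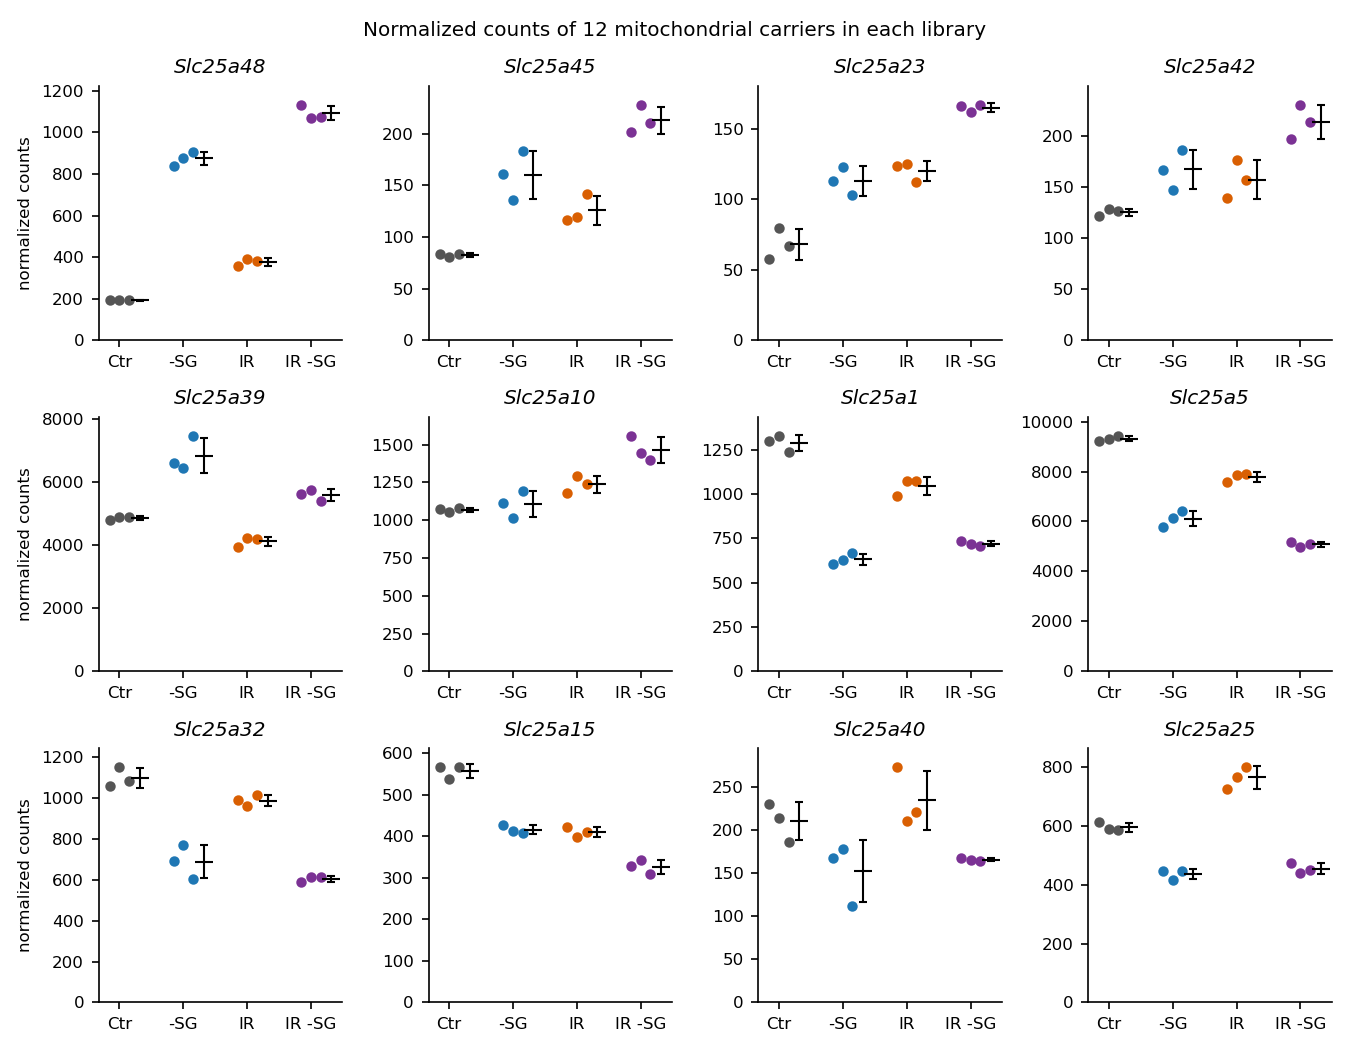
Normalized counts (vertical axes from 0) of 12 carriers in each library, as points by group, with the group mean and SD (n = 3) as a black bar beside them. Slc25a48 separates all 4 groups, Slc25a1 and Slc25a32 lie low in both starved groups, and Slc25a40 has 1 low library (112) within -SG.

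Among carriers of di- and tricarboxylates, the citrate carrier fell after starvation and the dicarboxylate carrier was not called after starvation alone and rose after starvation of irradiated cells. Slc25a1 exports citrate from mitochondria, the carbon source of cytosolic lipid synthesis. Its libraries held 1298, 1328 and 1237 normalized counts in Ctr, 603, 630 and 666 in -SG, 989, 1073 and 1075 in IR, and 735, 717 and 709 in IR -SG. The 4 groups did not overlap, and the lowest values were those of starvation without radiation. Slc25a1 thus fell to 0.492 of Ctr after starvation (log2 fold change -1.02 ± 0.05, adjusted p = 6.59e-11; -1.06 without replicate 6), to 0.812 after radiation (-0.30 ± 0.05, adjusted p = 0.000128) and to 0.560 under both (-0.84 ± 0.05, adjusted p = 4.05e-10). Within starved cells radiation raised it by 0.19 ± 0.05 (adjusted p = 0.00761; 0.22 without replicate 6).

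Slc25a10 exchanges malate and succinate for phosphate. In Ctr it held 1071, 1057 and 1079 normalized counts, in -SG 1114, 1016 and 1190, in IR 1178, 1294 and 1238 and in IR -SG 1558, 1442 and 1396. Starved and control libraries overlapped, and those of the double treatment were the highest. The log2 fold change was 0.05 after starvation (95% interval -0.07 to 0.17, adjusted p = 0.503; -0.01 without replicate 6), 0.21 ± 0.06 after radiation (adjusted p = 0.0059) and 0.45 ± 0.06 under both (adjusted p = 2.83e-06). Starvation of irradiated cells raised Slc25a10 by 0.24 (IR -SG against IR, adjusted p = 0.00179), a call held in all 24 alternatives. The interaction, the direct test of a difference between these starvation effects, was not called with all libraries (0.20, adjusted p = 0.133). Without replicate 6 it was called (0.25, adjusted p = 0.0143). Slc25a11, the oxoglutarate carrier, had -0.12 after starvation (adjusted p = 0.0419), a call that 13 of 24 alternatives lost, and -0.18 without replicate 6.

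The 3 listed genes of citrate use and lipid synthesis were Acly (ATP citrate lyase), Acaca (acetyl-CoA carboxylase) and Fasn (fatty acid synthase). All fell after starvation, with log2 fold changes of -0.54, -0.86 and -0.75 (-0.53, -0.81 and -0.74 without replicate 6). They fell in irradiated cells too, with -0.38, -0.67 and -0.47 in IR -SG against IR. Radiation alone lowered Acaca (-0.18, adjusted p = 0.0027), while Acly and Fasn were at -0.06 and -0.07 and not called. In starved cells radiation raised Acly by 0.09 and Fasn by 0.22 (adjusted p = 0.019 and 0.000614), and Acaca was not called (0.01). The interaction was called for Acly (0.16, adjusted p = 0.0224) and Fasn (0.29, adjusted p = 0.00534) but not for Acaca (0.19, adjusted p = 0.06).

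Carriers of ADP, ATP and phosphate had 6 tested members, of which 1 rose and 4 fell after starvation, the same counts as under both treatments. Of all tested genes, 30.0% rose and 28.6% fell in the first and 37.2% and 32.5% in the second comparison. The first counts were the same without replicate 6. Slc25a5 (Ant2), the ADP/ATP carrier of proliferating cells, held 9212, 9302 and 9427 normalized counts in Ctr, 5799, 6120 and 6415 in -SG, 7567, 7870 and 7904 in IR, and 5195, 4981 and 5080 in IR -SG. The groups did not overlap, in the order Ctr, IR, -SG and IR -SG from high to low. Its log2 fold changes were -0.61 ± 0.04 after starvation (adjusted p = 6.55e-10; -0.64 without replicate 6), -0.26 ± 0.04 after radiation (adjusted p = 2.21e-05) and -0.87 ± 0.04 under both (adjusted p = 4.89e-12), and its share of the family's sum per kb was 20.4% ± 0.462 for -SG, 23.3% ± 0.321 for IR and 18% ± 0.252 for IR -SG.

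Slc25a4 (Ant1), the ADP/ATP carrier typical of heart and muscle, moved less and not always alike. It held 11986, 12385 and 12299 normalized counts in Ctr, 10040, 10302 and 10859 in -SG, 13509, 13976 and 13245 in IR, and 10478, 10240 and 10352 in IR -SG. Irradiated fed cells were above Ctr and both starved groups below it, with the starved groups overlapping each other. The log2 fold change was -0.23 ± 0.03 after starvation (adjusted p = 1.88e-05; -0.27 without replicate 6), 0.15 ± 0.03 after radiation (adjusted p = 0.00134) and -0.39 ± 0.03 for starvation of irradiated cells (adjusted p = 7.1e-08). Slc25a3, the phosphate carrier, fell by 0.25 on the log2 scale after starvation and by 0.30 in irradiated cells (adjusted p = 5.62e-05 and 7.27e-06; the first was -0.29 without replicate 6), and gave 0.01 after radiation alone (95% interval -0.08 to 0.09).

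Slc25a25, another ATP-Mg/phosphate carrier, moved in opposite directions under the single treatments. Normalized counts were 612, 588 and 586 in Ctr, 445, 415 and 445 in -SG, 725, 767 and 800 in IR, and 475, 439 and 449 in IR -SG. IR libraries lay above Ctr and both starved groups below it. Radiation gave a log2 fold change of 0.36 ± 0.06 in complete medium (adjusted p = 5.63e-05) and 0.06 in starved cells (95% interval -0.06 to 0.18). Starvation gave -0.45 ± 0.06 without radiation (adjusted p = 3.26e-06; -0.47 without replicate 6) and -0.75 ± 0.06 with it (adjusted p = 1.17e-08). The remaining carrier of this class, Slc25a24, passed the test in none of the 6 comparisons with all libraries.

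All 3 tested carriers of aspartate and glutamate fell after starvation alone. In irradiated cells (IR -SG against IR) 1 of them, Slc25a22, fell. Slc25a13 was at -0.06 there and Slc25a12 at -0.10 (adjusted p = 0.358 and 0.111). Radiation of starved cells raised Slc25a12 by 0.21 (adjusted p = 0.00485, and 0.16 without replicate 6). Slc25a13 (citrin), which exchanges aspartate for glutamate in the malate-aspartate shuttle, held 1112, 1222 and 1246 normalized counts in Ctr, 977, 951 and 910 in -SG, 1068, 980 and 944 in IR, and 951, 942 and 972 in IR -SG. Every treated library was below every Ctr library, and the 3 treated groups overlapped. Its log2 fold changes were -0.33 ± 0.05 after starvation (adjusted p = 6.83e-05; -0.31 without replicate 6), -0.26 ± 0.05 after radiation (adjusted p = 0.000863) and -0.32 ± 0.05 under both (adjusted p = 7.07e-05). Slc25a12 (aralar), its relative, was at -0.25 after starvation (adjusted p = 0.000914; -0.20 without replicate 6) and 0.07 after radiation (95% interval -0.05 to 0.18). Slc25a22, a glutamate carrier, fell in all 5 comparisons of groups, from -0.17 (IR -SG against -SG, adjusted p = 0.00704) to -0.47 (IR -SG against Ctr, adjusted p = 1.49e-07), and was at -0.30 after starvation (-0.33 without replicate 6).

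The 4 listed enzymes of that shuttle divided in the same comparison, with 1 rise and 3 falls after starvation. The cytosolic and mitochondrial aspartate transaminases Got1 and Got2 were at -0.43 and -0.24, mitochondrial malate dehydrogenase Mdh2 at -0.20 and its cytosolic counterpart Mdh1 at 0.14. Without replicate 6 these were -0.43, -0.26, -0.26 and 0.10, with the same calls. Radiation alone raised Mdh1 (0.23, adjusted p = 0.000106) and changed none of the other 3 past the threshold.

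Slc25a15, which exchanges ornithine and citrulline in the urea cycle, fell in all 5 comparisons of groups. It held 566, 537 and 567 normalized counts in Ctr, 427, 413 and 407 in -SG, 423, 398 and 409 in IR, and 329, 342 and 308 in IR -SG. Both single treatments occupied the same range, and the double treatment lay below them. The log2 fold change was -0.42 ± 0.06 after starvation (adjusted p = 1.16e-05; -0.40 without replicate 6), -0.44 ± 0.06 after radiation (adjusted p = 1.07e-05) and -0.77 ± 0.06 under both (adjusted p = 5.46e-09). The other basic amino acid carrier in the table, Slc25a29, did not pass the test in any comparison with all libraries, and had -0.35 after starvation without -SG replicate 6 (adjusted p = 0.0102).

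Among carriers tied to one-carbon units, glycine and glutathione, 2 of 5 rose and 2 fell after starvation. Slc25a32, the folate and FAD carrier, held 1061, 1154 and 1087 normalized counts in Ctr, 695, 769 and 607 in -SG, 990, 963 and 1014 in IR, and 588, 616 and 613 in IR -SG. Both starved groups lay below both fed groups without overlap. It fell by 0.68 ± 0.07 on the log2 scale after starvation (adjusted p = 2.86e-07, and -0.59 without -SG replicate 6) and by 0.71 ± 0.07 in irradiated cells (adjusted p = 2.26e-07). Radiation in fed cells gave -0.15 (95% interval -0.30 to -0.01, adjusted p = 0.066). Radiation in starved cells lowered it by 0.18 (adjusted p = 0.0394), a call lost in 10 of 25 alternatives. Without -SG replicate 6 that value was -0.27 (adjusted p = 0.000225).

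Slc25a39 and Slc25a40, known from mammalian cells to bring glutathione into mitochondria, moved oppositely after starvation. Slc25a39 held 4808, 4891 and 4899 normalized counts in Ctr, 6622, 6449 and 7471 in -SG, 3957, 4221 and 4201 in IR, and 5630, 5768 and 5395 in IR -SG. The groups did not overlap, starved cells lying above fed cells. Starvation raised Slc25a39 by 0.49 ± 0.05 (adjusted p = 2.09e-07; 0.43 without replicate 6) without and 0.44 ± 0.05 (adjusted p = 9.34e-07) with radiation, and for radiation the values were -0.24 ± 0.05 (adjusted p = 0.000529) in fed and -0.29 ± 0.05 (adjusted p = 0.000163) in starved cells. Its share of the family's sum per kb was 8.41% ± 0.0115 for Ctr, 13.7% ± 0.702 for -SG, 7.38% ± 0.158 for IR and 11.8% ± 0.451 for IR -SG.

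Slc25a40 held 231, 214 and 187 normalized counts in Ctr, 168, 179 and 112 in -SG, 274, 211 and 221 in IR, and 168, 166 and 164 in IR -SG. The lowest of these, 112, came from -SG replicate 6, in which GC-rich genes read higher. The longest annotated transcript of Slc25a40 is 39.4% GC against 59.7% for that of Slc25a39. The log2 fold change after starvation was -0.48 ± 0.14 (adjusted p = 0.00916) with that library and -0.27 (adjusted p = 0.033) without it. For starvation of irradiated cells it was -0.49 ± 0.14 (adjusted p = 0.00828; 0.0521 without IR replicate 1). The ratio of Slc25a39 to Slc25a40 per kb was 63.5, 69.7 and 79.6 in Ctr, 120, 110 and 203 in -SG, 43.9, 60.9 and 57.8 in IR, and 102, 106 and 99.9 in IR -SG. All 6 starved libraries thus had a higher ratio than all 6 fed ones, also without the 203 of replicate 6.

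Slc25a26, which carries S-adenosylmethionine, held 125, 142 and 141 normalized counts in Ctr, 186, 164 and 177 in -SG, 109, 120 and 116 in IR, and 160, 129 and 149 in IR -SG. Values were highest after starvation alone and lowest after radiation alone, but radiation of fed cells was not called (-0.24, adjusted p = 0.0546). Its call in starved cells (-0.27, adjusted p = 0.0357) was lost in 6 of 25 alternatives, among them without -SG replicate 6 (adjusted p = 0.0618). Starvation gave 0.37 ± 0.10 (adjusted p = 0.00439; 0.36 without replicate 6; 0.225 and adjusted p = 0.0652 under quantile normalization) and, in irradiated cells, 0.33 ± 0.10 (adjusted p = 0.00891; 0.0522 without IR -SG replicate 4). Slc25a38, a glycine carrier for heme synthesis in yeast and human, held 331, 289 and 328 in Ctr, 341, 315 and 402 in -SG, 289, 332 and 320 in IR, and 303, 299 and 331 in IR -SG. It passed no test. The log2 fold change after starvation was 0.15 (95% interval -0.04 to 0.34), and 0.05 without -SG replicate 6, the library with 402.

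Genes beside these carriers moved as follows. Of 8 heme synthesis genes, 4 rose and 2 fell after starvation, led by Alas1, the rate-limiting enzyme, at 0.97 (adjusted p = 5.87e-11), with Alad at -0.56 (0.94 and -0.64 without replicate 6, with the same counts). Of 5 sideroflexins, inner membrane proteins outside this family, 1 rose and 3 fell after starvation. Sfxn1, a mitochondrial serine carrier in human cells, was at -0.35 in -SG against Ctr and -0.29 in IR -SG against IR (adjusted p = 1.23e-07 and 1.84e-06), while Sfxn3 rose by 0.39 and 0.47. Without replicate 6 the sideroflexin counts were the same, and Sfxn1 was at -0.34 and Sfxn3 at 0.39.

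Cofactor carriers included 5 tested members, with 1 rise and 1 fall after starvation and 2 rises and 0 falls after radiation. Without replicate 6, Slc25a16 added a rise after starvation. Slc25a16, linked to coenzyme A import, held 304, 265 and 301 normalized counts in Ctr, 342, 386 and 271 in -SG, 361, 404 and 387 in IR, and 350, 381 and 367 in IR -SG. Irradiated libraries all lay above Ctr, and -SG replicate 6 (271) lay apart from the other starved libraries. Radiation gave 0.41 ± 0.10 (adjusted p = 0.00313), and starvation 0.19 (adjusted p = 0.124) with and 0.33 (adjusted p = 0.00112) without replicate 6. Slc25a51, the NAD carrier of human cells, held 1339, 1294 and 1271 in Ctr, 1245, 1176 and 1161 in -SG, 1297, 1283 and 1342 in IR, and 1251, 1170 and 1229 in IR -SG. Its starvation value of -0.12 ± 0.04 (adjusted p = 0.022) lost the call in 5 of 24 alternatives, which were equal totals (adjusted p = 0.0886), quantile normalization (0.0691), only the groups compared (0.0546), and leaving out Ctr replicate 1 (0.0928) or -SG replicate 5 (0.0579). Without replicate 6 it was -0.10 (adjusted p = 0.0457).

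Slc25a20 exchanges acylcarnitine for carnitine, a step of fatty acid oxidation. Normalized counts were 156, 152 and 155 in Ctr, 160, 188 and 183 in -SG, 205, 215 and 181 in IR, and 219, 196 and 221 in IR -SG. All treated libraries were above Ctr, and single treatments overlapped. It rose by 0.37 ± 0.09 after radiation (adjusted p = 0.00244; 0.21 and adjusted p = 0.0617 under quantile normalization) and by 0.46 ± 0.09 under both (adjusted p = 0.000265), with 0.19 after starvation (95% interval 0 to 0.38, adjusted p = 0.0757; 0.17 without replicate 6).

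Of the mitoferrins, which import iron, 1 was called after starvation, while both fell in IR -SG against Ctr. There Slc25a37 was at -0.28 and Slc25a28 at -0.13 (adjusted p = 4.86e-05 and 0.0337), the latter a call lost in 6 of 24 alternatives. Slc25a37 fell by 0.26 after starvation and by 0.19 in irradiated cells on the log2 scale (adjusted p = 0.000161 and 0.00234; the first was -0.20 without replicate 6), whereas Slc25a28 was at -0.03 and -0.12 and passed neither test. Of the pyrimidine nucleotide carriers, Slc25a33 fell after radiation of starved cells (-0.43 in IR -SG against -SG, adjusted p = 0.000544, and -0.38 without replicate 6). In fed cells radiation gave -0.17 (adjusted p = 0.0919), and the interaction was not called (-0.26, adjusted p = 0.161). Slc25a36 was called in -SG against Ctr alone (0.27, adjusted p = 0.0236). That call was lost without either Ctr replicate 1 or 3 or -SG replicate 4 or 5 (adjusted p 0.0543 to 0.123) and kept at 0.40 without replicate 6. Among low members, Slc25a27, an uncoupling-protein-like gene, went from 68.5, 86.1 and 85.3 in Ctr to 54.6, 39.3 and 51.0 in IR (log2 fold change -0.72 ± 0.21, adjusted p = 0.00972; 0.0507 without IR replicate 2). Slc25a35 was lowest in the irradiated fed libraries (6.3, 5.62 and 5.42 normalized counts) and held 16, 16.7 and 11.8 in -SG and 22.5, 16.8 and 13.8 in IR -SG, which overlapped (IR -SG against -SG 0.23, adjusted p = 0.508), with the shared bases with Rangrf given above. Slc25a27 and Slc25a35 were named after their values were seen.

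No comparison called 11 of the 40 tested members: Slc25a14, Slc25a17, Slc25a24, Slc25a29, Slc25a30, Slc25a38, Slc25a43, Slc25a44, Slc25a46, Slc25a47 and Slc25a53. The share of all tested genes called in no comparison was not counted, so this count is not a result about the family. Some are abundant, such as Slc25a24 (2772 to 3401 normalized counts per library) and Slc25a30 (1006 to 1198). Without -SG replicate 6, Slc25a24, Slc25a29 and Slc25a46 were each called in at least 1 comparison, so that missing calls do not show that a member was unaltered.

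The starvation response was compared between unirradiated and irradiated cells, a pair of comparisons that share no library. Both called 6 of the same members as higher (Slc25a23, Slc25a26, Slc25a39, Slc25a42, Slc25a45 and Slc25a48) and 10 as lower (Slc25a1, Slc25a3, Slc25a4, Slc25a5, Slc25a15, Slc25a22, Slc25a25, Slc25a32, Slc25a37 and Slc25a40), and 0 in opposite directions, that is, 15% and 25% of the members, where 21.8% of all tested genes rose in both, 21.3% fell in both and 0.789% were opposite. Without -SG replicate 6 the counts were 6, 12 and 0, and the matching shares of all genes are not given here. Log2 fold changes of the 40 members had Pearson's r of 0.87 between the comparisons and all 11663 genes 0.79, as a description across genes, which are not independent replicates. For radiation in fed and in starved cells, 6 members rose in both (Slc25a10, Slc25a20, Slc25a23, Slc25a42, Slc25a45 and Slc25a48), 5 fell in both (Slc25a5, Slc25a15, Slc25a22, Slc25a27 and Slc25a39) and 1, Slc25a1, was called in opposite directions, where 18.1%, 14.3% and 0.720% of all tested genes were. Without -SG replicate 6 the counts were 6, 6 and 1, again without matching shares of all genes. Several of these calls in starved cells were lost in other settings: that of Slc25a20 in 7 of 25 alternatives (quantile normalization, only the groups compared, the replicate block, DESeq2, and without -SG replicate 4 or IR -SG replicate 4 or 6; adjusted p 0.0511 to 0.121), that of Slc25a27 in 5 of 24 (no trend, only the groups compared, and without -SG replicate 4 or 5 or IR -SG replicate 4; adjusted p 0.0592 to 0.18) and that of Slc25a42 in the 2 given above. The r was 0.67 over members and 0.75 over all genes.

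**Figure D4:**
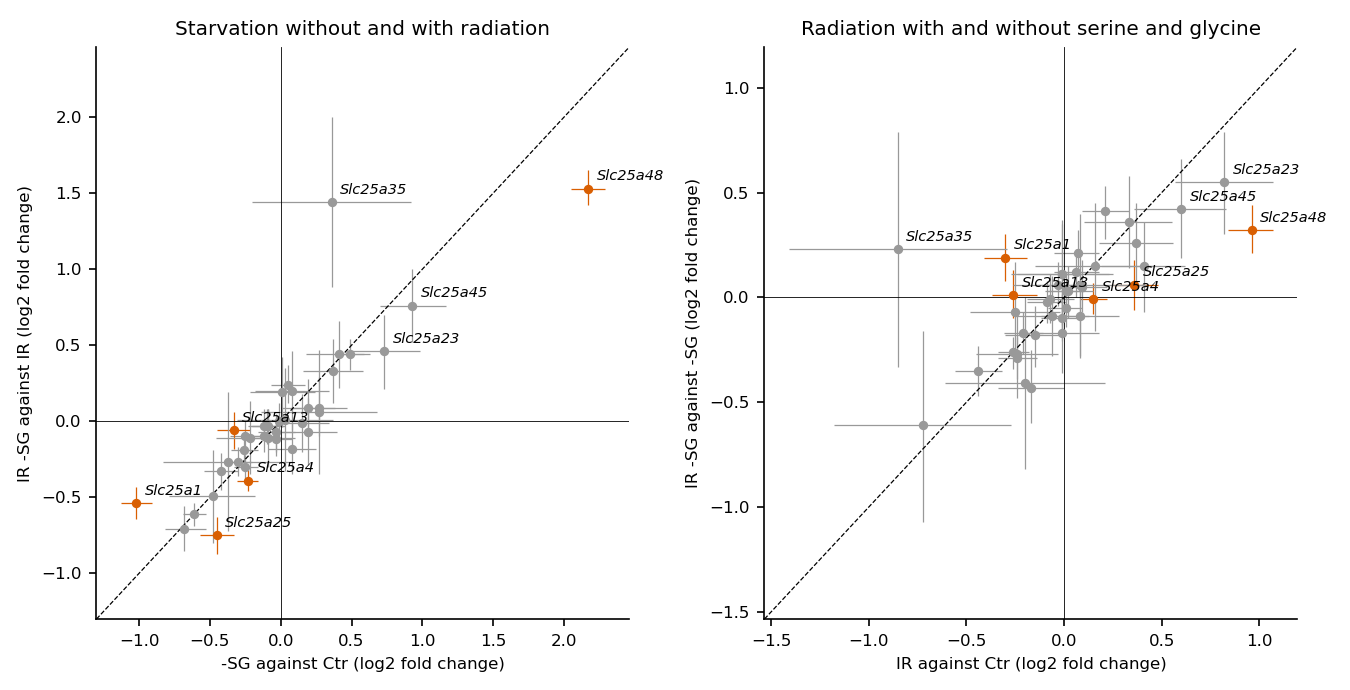
Log2 fold changes of 39 of the 40 tested carriers after starvation (left panel, without radiation on the horizontal and with it on the vertical axis) and after radiation (right panel, with serine and glycine on the horizontal and without them on the vertical axis), with 95% intervals. Orange points passed the test of the interaction, and the dashed line marks equal values: Slc25a48 lies below it in both panels and Slc25a1 above it.

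The interaction, which is the radiation effect in starved cells less that in fed cells, was called higher for 2 members and lower for 3, where 4.20% and 7.17% of all tested genes were. For Slc25a1 it was 0.49 ± 0.07 (adjusted p = 0.000373): radiation gave -0.30 in fed and 0.19 in starved cells. For Slc25a48 it was -0.64 ± 0.08 (adjusted p = 7e-05), with 0.96 and 0.32. Both calls held in all 24 alternatives, at 0.45 to 0.52 and -0.68 to -0.54. Those of Slc25a13 (0.27, adjusted p = 0.0316), Slc25a25 (-0.30, adjusted p = 0.0231) and Slc25a4 (-0.16, adjusted p = 0.0447) were lost in 9, 8 and 13 of 24 alternatives (adjusted p 0.0518 to 0.124 where lost). All 3 were lost with the replicate block (adjusted p = 0.0924, 0.0532 and 0.0828), without Ctr replicate 2 or 3, IR replicate 2, or IR -SG replicate 5 or 6, and without -SG replicate 6 all 3 held. Without -SG replicate 6, Slc25a10 (0.25), Slc25a16 (-0.40) and Slc25a36 (-0.30) were called as well, giving 3 members higher and 5 lower. Calls also grew over all 11663 tested genes in that setting, from 490 higher and 836 lower to 847 and 1207.

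Genes of carrier biogenesis were counted from a list of 10 TIM22 pathway components. Of these, 2 rose and 3 fell after starvation, 1 rose and 6 fell after radiation, and 2 rose and 7 fell under both, where 30.0% and 28.6%, 28.9% and 24.9%, and 37.2% and 32.5% of all tested genes did. Without replicate 6, 2 rose and 4 fell after starvation. Under both treatments Timm9 and Timm10, which form the chaperone that guides carriers across the intermembrane space, were at -0.80 and -0.75, and Timm22, the insertion channel, was at 0.34 (adjusted p = 3.64e-08, 3.93e-06 and 4.5e-05). Tomm70a, the outer membrane receptor for carriers, fell in all 5 comparisons of groups, from -0.14 to -0.39, with -0.15 after starvation and -0.08 (adjusted p = 0.0425) there without replicate 6.

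Of 5 family genes with other kinds of symbol, 3 were in the table. Ucp2, an uncoupling protein, held 4026, 3971 and 4029 normalized counts in Ctr, 2070, 1939 and 2259 in -SG, 3979, 4132 and 4028 in IR, and 2539, 2500 and 2447 in IR -SG. Starved libraries lay below fed ones without overlap, with a log2 fold change of -0.94 ± 0.05 after starvation (adjusted p = 3.91e-11; -1 without replicate 6) and 0.01 after radiation (95% interval -0.08 to 0.11). In starved cells radiation raised Ucp2 by 0.26 (adjusted p = 0.000255, and 0.32 without replicate 6), and its interaction was called (0.25, adjusted p = 0.0198). Mtch1 rose after radiation (0.41, adjusted p = 1.77e-06) and Mtch2 passed no test. After starvation Mtch1 was at -0.09 and not called, and at -0.15 (adjusted p = 0.000639) without replicate 6. Of the 3 outer membrane channels Vdac1 fell after starvation (-0.18, adjusted p = 0.000159, also -0.18 without replicate 6, when Vdac2 was called at -0.09) and none was called after radiation, and of the 2 pyruvate carrier subunits 0 were called after starvation and 1, Mpc2 (0.14, adjusted p = 0.0465), after radiation.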

How the data were processed

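RNA-Seq values of 12 libraries in 4 groups of 3 were analysed. The authors checked reads with FastQC, aligned them to GRCm38 with HISAT2 and TopHat, counted them per gene with featureCounts and normalized counts with DESeq2 in R 3.3.1 (other versions and the strand setting: not given in the sources used here). What they deposited is a signal: counts divided by 1 size factor per library, and whole reads were recovered from 100% of values at a tolerance of 0.001.

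Genes were annotated with GENCODE M21. Values were tested as log2(normalized count + 1) with limma 3.58.1 in R 4.3.3 (eBayes with an intensity trend, two-sided, 12 libraries in 1 fit), over the 11663 protein-coding genes in which 3 or more libraries reached 10 normalized counts, with Benjamini-Hochberg adjustment over all of them and a threshold of 0.05. The fit was tested on simulated data. Alternatives were pseudocounts of 0.5 and 8, the filter dropped or set to a mean of 100, 3 other scalings, no trend, only the groups compared, all genes, the replicate block, edgeR 4.0.16 and DESeq2 1.42.0 on recovered reads, and leaving out each library. Lengths and overlaps came from GENCODE exons, and GC content from the longest GENCODE transcript of each gene.

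Members, lists and tests were chosen with earlier results of these data known. Full values are given for the 5 largest rises and falls (mean of at least 100 in the higher group) in -SG and in IR against Ctr, for such members called in the interaction, for Slc25a1 and Slc25a10, and for carriers of folate, glycine, glutathione, S-adenosylmethionine and NAD; others are given by counts within their role and by examples chosen after their values were seen. Protein sequences were not used here. One member is counted but not reported here by name or in the figures.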

Additional observations from a re-analysis of the deposited data

Results flagged for a closer look

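For 5 members the radiation effect differed between starved and fed cells in limma's test of that difference. It was called higher for 5% and lower for 7.5% of members, near the 4.20% and 7.17% of all tested genes. The differences on the log2 scale were 0.49 for Slc25a1 (citrate), 0.27 for Slc25a13 (aspartate and glutamate), -0.16 for Slc25a4 (ADP/ATP), -0.30 for Slc25a25 (ATP-Mg/phosphate) and -0.64 for Slc25a48. For Slc25a1 the effects had opposite signs in both media, at -0.30 with and 0.19 without serine and glycine, and for Slc25a48 they shared a sign, at 0.96 and 0.32. Slc25a25 had 0.36 and 0.06, Slc25a4 0.15 and -0.01, and Slc25a13 -0.26 and 0.01, each called in fed cells and not in starved ones. Only the differences of Slc25a1 and Slc25a48 held in all 24 alternatives. No other value of a member was flagged. Groups of 3 libraries were not screened for outlying values member by member, and -SG replicate 6 stood apart over all genes, as given in the report.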

How the results depend on the processing

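Of 100 calls of members over the 6 comparisons, 80 held in every alternative that could be fitted, and no call changed sign. Of 5815 single results under alternatives, 5625 kept their side of the threshold, 108 lost a call and 82 gained one. Counts stayed within 1.5 times of those reported except in radiation within starved cells, where 5 members fell with only the groups compared in the fit, and in the interaction, where the replicate block gave 1 rise and 1 fall. Replicate numbers did not pair the libraries: same-numbered libraries had correlations of deviations from -0.094 to 0.068, although each Ctr library correlated best with the IR library of its own number; the replicate block could be fitted where groups share numbers, and gave 9 and 9 for radiation in fed cells and 7 and 8 in starved cells. Leaving out 1 library at a time gave 5 to 10 falls for radiation within starved cells, with the lowest without -SG replicate 4, and 1 to 3 rises and 1 to 5 falls for the interaction, with 5 falls without -SG replicate 6 and 1 of each without Ctr replicate 2 or 3. Scaling every library to the same total moved the members' median from -0.03 to 0.004 in -SG against Ctr and from -0.01 to 0.021 in IR against Ctr, and the median of all tested genes moved alike, from 0.006 to 0.042 and from 0.003 to 0.032. In IR against Ctr, quantile normalization made the rises of the low members Slc25a23, Slc25a42 and Slc25a45 smaller and falls larger: Slc25a14 went from -0.25 to -0.51, Slc25a26 from -0.24 to -0.445 and Slc25a47 from -0.20 to -0.639, each gaining a call, as did Slc25a33 (-0.22); the cause was not tested. With 3 libraries a group, members under about 100 normalized counts are imprecise, as the interval of -1.41 to -0.29 for Slc25a35 in IR against Ctr shows.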
